A study of Arabidopsis thaliana with 28 samples.

Results

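The N-hydroxypipecolic acid (NHP) pathway was followed here through the transcripts of its 4 enzyme genes, ALD1 (AT2G13810), SARD4 (AT5G52810), FMO1 (AT1G19250) and UGT76B1 (AT3G11340). They were taken by locus identifier from a table of 28437 Arabidopsis thaliana genes, and all 4 were among the 22329 genes that passed the filter on low values and were tested. The table holds 24 RNA-seq libraries of whole seedlings aged 2 weeks, 3 for each of 8 genotypes. The study asked how loss of the chromatin remodeler DDM1 alters the vigor of hybrids between the accessions Col and C24. The ddm1 genotypes were the inbred parents ddm1-Col and ddm1-C24 and the hybrids ddm1-ColxC24 and ddm1-C24xCol, in which both parents carried a ddm1 mutation and the mother is named first. The wild-type (WT) genotypes were WT-Col, WT-C24 and the hybrids WT-ColxC24 and WT-C24xCol. Which ddm1 allele was used for the RNA libraries is not given in the sources used here. The 6 libraries of both cross directions are called ddm1-F1 or WT-F1, and the mid-parent value (MPV) is the mean of the Col and C24 parents of the same replicate number.

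NHP is a mobile signal of systemic acquired resistance, the state in which an infected leaf primes the rest of the plant against pathogens. ALD1 is an aminotransferase that acts on lysine, SARD4 is a reductase that then yields pipecolic acid, and FMO1 is the monooxygenase that hydroxylates pipecolic acid to NHP. UGT76B1 attaches glucose to NHP, and also to salicylic acid (SA) and isoleucic acid, which takes them out of the active pool.

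The gene models are given on the TAIR10.1 assembly with the RefSeq annotation, matched by locus. ALD1 lies on the plus strand of chromosome 2 (5768417 to 5772266) with 10 exons, and SARD4 on the plus strand of chromosome 5 (21399331 to 21400686) with 1 exon. FMO1 lies on the minus strand of chromosome 1 (6650476 to 6653195) with 5 exons, and UGT76B1 on the plus strand of chromosome 3 (3556554 to 3558361) with 2 exons. The first 89 bases of SARD4 overlap AT5G52800 on the same strand, a gene at 0.6 to 2.6 RPM (the reads of a gene scaled to a common library total), so reads in that stretch are uncertain.

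The 250 bases before the annotated start of ALD1, FMO1 and UGT76B1 in the Col-0 reference are shown because these 3 differed between genotypes below. They were searched on both strands for the W-box core TTGAC, the TGA factor core TGACG, the CAMTA core CGCG and the site GAAATTTGG bound by the regulators SARD1 and CBP60g, and none of the 3 windows held any of them. The capitals mark the shorter GAAATTT (or its reverse complement, where the matches can overlap), the first 7 letters of the last site, which was searched only after the whole site had given no match.
ALD1, chr2:5768167-5768416, plus strand: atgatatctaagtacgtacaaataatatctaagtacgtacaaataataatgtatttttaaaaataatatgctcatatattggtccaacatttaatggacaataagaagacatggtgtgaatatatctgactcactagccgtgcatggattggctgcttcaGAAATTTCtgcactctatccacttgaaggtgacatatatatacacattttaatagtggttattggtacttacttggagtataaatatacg
FMO1, chr1:6653196-6653445, minus strand: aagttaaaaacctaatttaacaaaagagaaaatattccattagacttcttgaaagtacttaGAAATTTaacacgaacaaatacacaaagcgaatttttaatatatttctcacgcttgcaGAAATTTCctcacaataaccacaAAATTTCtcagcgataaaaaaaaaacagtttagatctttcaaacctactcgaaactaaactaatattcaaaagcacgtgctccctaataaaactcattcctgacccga
UGT76B1, chr3:3556304-3556553, plus strand: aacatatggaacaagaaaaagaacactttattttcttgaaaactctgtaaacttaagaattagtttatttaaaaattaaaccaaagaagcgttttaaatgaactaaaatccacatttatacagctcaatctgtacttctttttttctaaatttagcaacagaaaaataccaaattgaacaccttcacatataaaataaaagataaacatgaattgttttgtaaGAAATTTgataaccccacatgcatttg
GAAATTT was present in 3 of the 4 members' windows and in 12.5% of 27443 windows before protein-coding genes. The whole site was present in 0.627% of those windows, TTGAC in 44.9%, TGACG in 18.6% and CGCG in about 10%. The ALD1 window also opens with a direct repeat of 21 bases, whose copies begin 247 and 226 bases before the start. The window of SARD4 lies in AT5G52800 and is not shown. It held 2 matches to TTGAC. Windows of the C24 genome were not examined.

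DDM1 itself was measured first, as a check of the labels. It was at 2.6, 1.7 and 2.6 RPM in ddm1-Col and at 6.3, 9.5 and 12.6 RPM in WT-Col (log2 difference -1.80, SE 0.31, adjusted p = 0.0129). In the libraries labelled ddm1-C24 it was at 6.7, 14.3 and 13.2 RPM, against 6.0, 7.0 and 12.4 RPM in WT-C24, so the transcript was not lower there (log2 difference 0.41, SE 0.40, adjusted p = 0.777). In the hybrids it averaged 6.15 ± 1.91 RPM in ddm1-F1 and 8.05 ± 2.86 RPM in WT-F1 (SD, n = 6 each; log2 difference -0.35, SE 0.25, limma adjusted p = 0.744), and the groups overlapped. Blocking on replicate number brought that adjusted p to 0.0245. A mutation need not lower its transcript, and the ddm1-C24 and ddm1-F1 results below rest on the labels. Shoot markers summed to 24880 to 49694 RPM and root markers to 1218 to 2596 RPM over the libraries. Senescence markers summed to 63.2 to 477 RPM. Libraries of 1 genotype are separate samples by their labels, and the sources used here say only that each genotype was grown on plates in triplicate, so p-values measure the spread between these samples, which may be technical.

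ALD1, the entry enzyme, had a steep difference between accessions. It was at 23.4, 17.6 and 18.9 RPM in ddm1-C24, against 11.6, 13.8 and 10.3 RPM in WT-C24. In ddm1-Col it was at 1.4, 1.3 and 4.5 RPM, against 1.3, 1.3 and 3.1 RPM in WT-Col. The ddm1-C24 libraries lay above all others, WT-C24 came next, and no Col or hybrid library exceeded 8.4 RPM. The hybrids were low: 3.7, 2.6 and 7.2 RPM in ddm1-ColxC24 against 2.6, 1.8 and 5.7 RPM in WT-ColxC24. The other direction gave 4.1, 3.6 and 2.4 RPM in ddm1-C24xCol against 3.0, 3.8 and 8.4 RPM in WT-C24xCol. By mean the order was ddm1-C24 (19.97 ± 3.04), WT-C24 (11.9 ± 1.77), WT-C24xCol (5.07 ± 2.91), ddm1-ColxC24 (4.50 ± 2.40), ddm1-C24xCol (3.37 ± 0.87) beside WT-ColxC24 (3.37 ± 2.06), ddm1-Col (2.40 ± 1.82) and WT-Col (1.90 ± 1.04), in RPM (SD, n = 3 each). The 6 genotypes below WT-C24 overlapped in their ranges.

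SARD4, the reductase, had no such order. It was at 23.3, 23.8 and 21.4 RPM in ddm1-C24, against 9.7, 8.5 and 15.8 RPM in WT-C24. In ddm1-Col it was at 15.1, 12.2 and 53.0 RPM, against 22.3, 25.9 and 43.1 RPM in WT-Col. WT-C24 had the lowest mean of the 8 genotypes, and both Col genotypes were spread widely by their replicate 3. The hybrids had 13.4, 10.4 and 37.9 RPM in ddm1-ColxC24 against 20.4, 19.2 and 32.6 RPM in WT-ColxC24. The values were 18.3, 15.8 and 29.1 RPM in ddm1-C24xCol against 16.6, 12.9 and 34.5 RPM in WT-C24xCol. By mean the order was WT-Col (30.4 ± 11.1), ddm1-Col (26.8 ± 22.8), WT-ColxC24 (24.1 ± 7.41), ddm1-C24 (22.8 ± 1.27), WT-C24xCol (21.3 ± 11.6), ddm1-C24xCol (21.1 ± 7.07), ddm1-ColxC24 (20.6 ± 15.1) and WT-C24 (11.3 ± 3.91), in RPM (SD, n = 3 each), and each neighbouring pair overlapped.

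FMO1, the enzyme that makes NHP, was high in 1 genotype. It was at 37.1, 35.1 and 39.7 RPM in ddm1-C24, against 10.2, 14.8 and 10.5 RPM in WT-C24. In ddm1-Col it was at 9.2, 9.7 and 5.2 RPM, against 7.0, 7.0 and 2.2 RPM in WT-Col. No library outside ddm1-C24 exceeded 14.8 RPM. The hybrids had 8.9, 8.8 and 11.3 RPM in ddm1-ColxC24 against 6.3, 7.0 and 4.2 RPM in WT-ColxC24. They had 8.9, 8.7 and 3.6 RPM in ddm1-C24xCol against 6.3, 10.3 and 9.9 RPM in WT-C24xCol. The ddm1 hybrids were thus apart from WT in 1 direction of the cross and overlapped it in the other. By mean the order was ddm1-C24 (37.3 ± 2.31), WT-C24 (11.8 ± 2.57), ddm1-ColxC24 (9.67 ± 1.42), WT-C24xCol (8.83 ± 2.20), ddm1-Col (8.03 ± 2.47), ddm1-C24xCol (7.07 ± 3.0), WT-ColxC24 (5.83 ± 1.46) and WT-Col (5.40 ± 2.77), in RPM (SD, n = 3 each). Below ddm1-C24 each neighbouring pair overlapped.

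UGT76B1, the glucosyltransferase, was also highest in ddm1-C24, at 55.2, 68.2 and 73.3 RPM, against 24.5, 16.6 and 36.2 RPM in WT-C24. In ddm1-Col it was at 24, 19.9 and 31.2 RPM, against 21.2, 16.4 and 20.3 RPM in WT-Col. Outside ddm1-C24 the highest library was at 43.6 RPM. The hybrids had 25.7, 16.8 and 43.6 RPM in ddm1-ColxC24 against 28.7, 14.4 and 30.5 RPM in WT-ColxC24. They had 29.4, 20.3 and 34.3 RPM in ddm1-C24xCol against 21.5, 13.5 and 29.5 RPM in WT-C24xCol. The other 7 genotype means lay between 19.3 ± 2.55 RPM in WT-Col and 28.7 ± 13.6 RPM in ddm1-ColxC24, against 65.6 ± 9.33 RPM in ddm1-C24 (SD, n = 3 each), and these 7 genotypes overlapped.

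**Figure D1:**
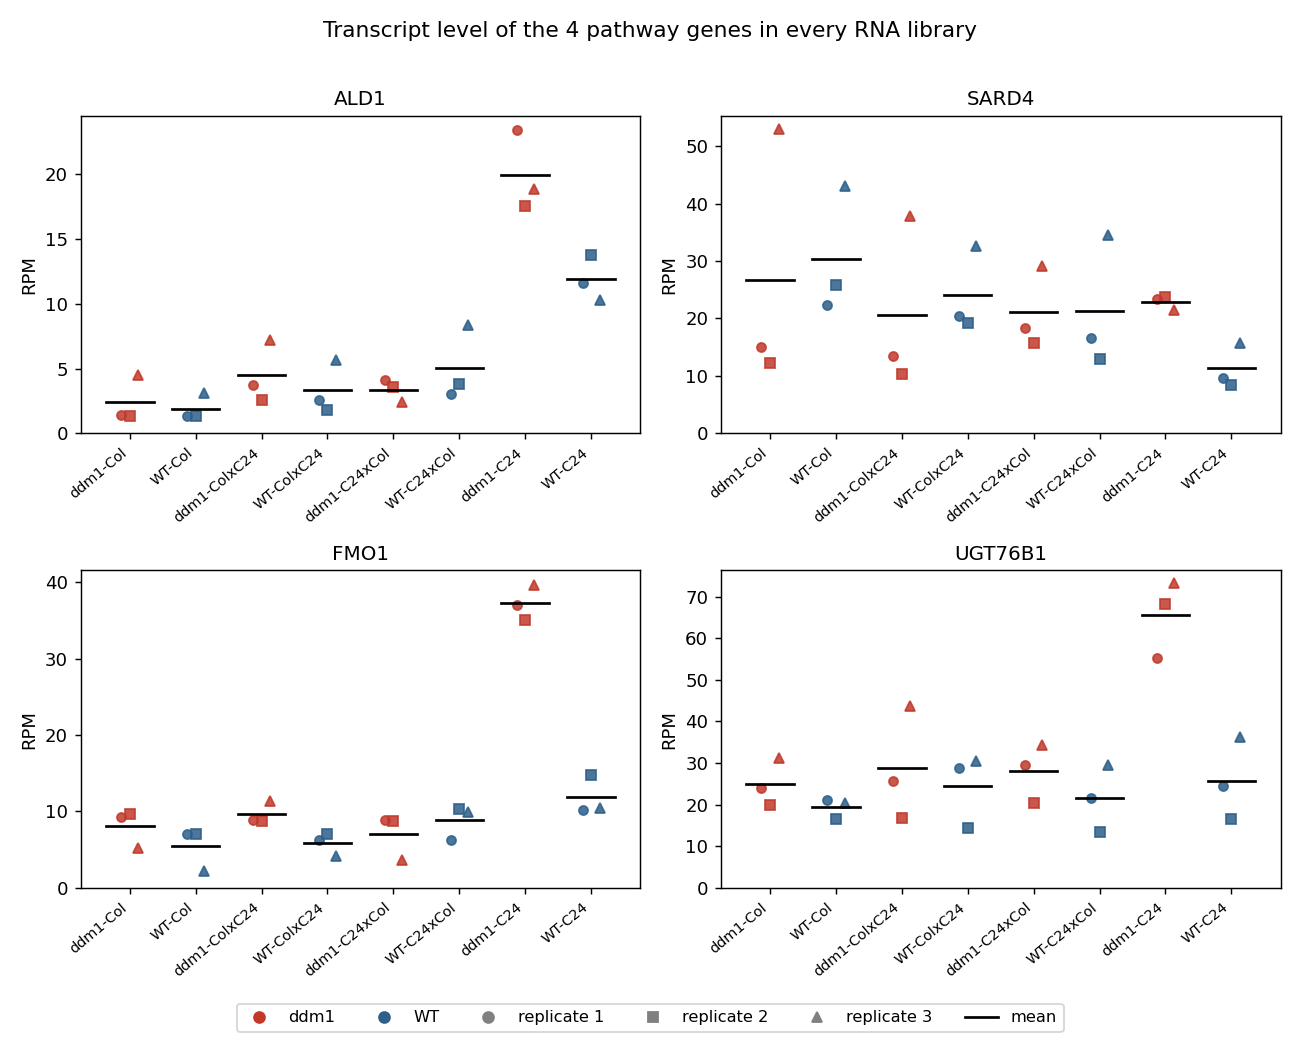
RPM of each gene (vertical axis, linear from 0) in every library, by genotype on the horizontal axis, with the replicate number as the marker shape and the genotype mean as a bar. FMO1 is at 35.1 to 39.7 RPM in ddm1-C24 and at 14.8 RPM or less in all other libraries.

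Levels of different genes were compared per kilobase of exon. In ddm1-C24 the mean level was 37.9 ± 5.39 RPM per kb for UGT76B1, 19.5 ± 1.20 for FMO1, 16.8 ± 0.93 for SARD4 and 12.7 ± 1.94 for ALD1 (SD, n = 3). In WT-Col it was 22.4 ± 8.20 RPM per kb for SARD4, 11.2 ± 1.47 for UGT76B1, 2.82 ± 1.45 for FMO1 and 1.21 ± 0.66 for ALD1 (SD, n = 3). SARD4 thus had the highest mean in WT-Col and the third highest in ddm1-C24, while ALD1 had the lowest in both.

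The effect of ddm1 within each accession was compared next. In C24, FMO1 and UGT76B1 were higher in ddm1-C24 than in WT-C24, by 3.15 and 2.54 times in mean RPM. FMO1 had a log2 difference of 1.63 (SE 0.19, adjusted p = 0.00272) and UGT76B1 of 1.39 (SE 0.30, adjusted p = 0.0422). The test was passed by 2 of the 4 genes, against 9.74% of all tested genes (8.61% higher). In seedlings taken whole, more cells of a type and more RNA per cell cannot be told apart. SARD4 (log2 difference 1.03, SE 0.26, adjusted p = 0.0734) and ALD1 (0.72, SE 0.20, adjusted p = 0.0956) did not pass. Their 3 ddm1-C24 libraries lay above their 3 WT-C24 libraries, but the share of all tested genes separated in this way was not counted. SARD4 passed under 2 of 15 alternatives, 1 of them rescaling by median ratios (limma adjusted p = 0.0354), and ALD1 under 0. FMO1 passed under 14 of 15 alternatives (adjusted p 0.00251 to 0.101) and UGT76B1 under 7 of 15 (0.0119 to 0.177). Neither passed without the libraries numbered 3, and UGT76B1 did not pass without the filter on low values, with ddm1-C24 replicates 2 and 3 averaged, or when ddm1-C24 replicate 1, 2 or 3 or WT-C24 replicate 1 or 2 was left out. The 5 seed markers summed to 139 to 393 RPM in ddm1-C24 and 582 to 1927 RPM in WT-C24. Their part in the result was not tested.

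In Col, none of the 4 genes passed the limma test, against 8.04% of all tested genes, and 0 of the 4 had an unadjusted p under 0.05. The log2 differences of ddm1-Col against WT-Col were 0.63 for FMO1 (95% interval -0.53 to 1.79), 0.35 for UGT76B1 (-0.19 to 0.89), 0.18 for ALD1 (-1.0 to 1.37) and -0.44 for SARD4 (-1.84 to 0.96). The median of all tested genes was -0.10 here and 0.02 after rescaling by median ratios, which moved FMO1 to 0.75 and UGT76B1 to 0.48. Both were higher in ddm1-Col in each of the 3 same-numbered pairs, a pattern that was not counted over all tested genes. With rescaling and the replicate block together both passed (limma adjusted p = 0.0281 for FMO1 and 0.0194 for UGT76B1), as did 3211 of 22329 genes. With the block alone they did not (0.0548 and 0.0674). A direct test of a difference in ddm1 effect between the accessions was passed by none of the 4 genes, against 5.06% of all tested genes (1 of the 4 had an unadjusted p under 0.05 in limma). The effect in C24 minus that in Col was 1.46 for SARD4 (SE 0.67, adjusted p = 0.463), 1.04 for UGT76B1 (SE 0.38, adjusted p = 0.255), 1.00 for FMO1 (SE 0.54, adjusted p = 0.618) and 0.54 for ALD1 (SE 0.56, adjusted p = 0.983). With the replicate number as a block UGT76B1 passed (adjusted p = 0.0217), as did 12.5% of all tested genes. SARD4 passed without ddm1-Col replicate 3, its highest library (2.11, SE 0.43, adjusted p = 0.0159, in a range of 0.0159 to 0.903 over 21 alternatives).

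In the hybrids, none of the 4 genes passed between ddm1-F1 and WT-F1, against 10.4% of all tested genes, and 0 of the 4 had an unadjusted p under 0.05 in limma. ALD1 averaged 3.93 ± 1.73 RPM in ddm1-F1 and 4.22 ± 2.44 RPM in WT-F1 (SD, n = 6 each), a log2 difference of -0.02 with a 95% interval of -0.72 to 0.69. FMO1 averaged 8.37 ± 2.54 RPM in ddm1-F1 and 7.33 ± 2.34 RPM in WT-F1 (0.17, interval -0.41 to 0.74). The intervals of SARD4 (-0.87 to 0.52) and UGT76B1 (-0.28 to 0.88) also included 0. By direction of the cross, FMO1 differed from WT by 0.70 in ddm1-ColxC24 and -0.37 in ddm1-C24xCol, and ALD1 by 0.39 and -0.43, with limma adjusted p-values of 0.352 to 1. UGT76B1, at a log2 difference of 0.30, passed with the replicate block (adjusted p = 0.0245), as did 25% of all tested genes.

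Set against the parental mean, ALD1 and FMO1 were lower in the ddm1 hybrids. ALD1 ranged over the 6 ddm1-F1 libraries between 2.4 and 7.2 RPM with a median of 3.65, against ddm1 MPV values of 12.4, 9.45 and 11.7 RPM. FMO1 ranged between 3.6 and 11.3 RPM with a median of 8.85, against ddm1 MPV values of 23.2, 22.4 and 22.5 RPM. In both genes every hybrid library lay below every MPV value, a separation that was not counted over all tested genes. The log2 difference was -1.47 for ALD1 (SE 0.29, adjusted p = 0.0285) and -1.45 for FMO1 (SE 0.29, adjusted p = 0.0309). The test was passed by 2 of the 4 genes, against 2.23% of all tested genes (2.11% lower). Both stand in the list of genes that the study drew from these libraries for lying below the MPV, so this comparison is not independent evidence of their direction. The study also divided such genes by whether ddm1-Col lay above or below WT-Col. The direction of ALD1 and FMO1 in that comparison may therefore not be independent either. Against the ddm1 MPV each of them passed under 9 of 21 alternatives, ALD1 with an adjusted p of 0.00133 to 0.448 and FMO1 of 0.00176 to 0.148. With the MPV taken as the mean of log2 values the differences were -0.78 and -1.06 and neither passed, nor did either in 1 direction of the cross alone, with ddm1-C24 replicates 2 and 3 averaged, or when ddm1-ColxC24 replicate 1 or 2, ddm1-C24xCol replicate 1 or 2 or any MPV value was left out. ALD1 did not pass without the libraries numbered 3, nor FMO1 after rescaling by median ratios. Seed markers summed to 1 to 163 RPM over the ddm1-F1 libraries, against 139 to 393 RPM in ddm1-C24 and 2.9 to 52.2 RPM in ddm1-Col. Their part in the result was not tested.

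UGT76B1 ranged between 16.8 and 43.6 RPM in ddm1-F1 with a median of 27.6, against ddm1 MPV values of 39.6, 44.1 and 52.3 RPM, and the groups overlapped through ddm1-ColxC24 replicate 3. It had a log2 difference of -0.73 from the ddm1 MPV (SE 0.27, adjusted p = 0.432) and passed with the replicate block (adjusted p = 0.00397), as did 19.9% of all tested genes. SARD4 ranged between 10.4 and 37.9 RPM in ddm1-F1, against ddm1 MPV values of 19.2, 18 and 37.2 RPM, with a log2 difference of -0.31 (95% interval -1.21 to 0.60). Between WT-F1 and WT MPV none of the 4 genes passed, against 0.0672% of all tested genes, and 0 had an unadjusted p under 0.05 in limma. ALD1 averaged 4.22 ± 2.44 RPM in WT-F1 (SD, n = 6) and 6.90 ± 0.58 RPM in WT MPV (SD, n = 3), a log2 difference of -0.80 with an interval of -1.72 to 0.13. FMO1 was at -0.24, SARD4 at 0.09 and UGT76B1 at -0.01. The difference between the ddm1 and the WT distance from MPV was tested directly, and none of the 4 genes passed, against 0.761% of all tested genes (1 of the 4 had an unadjusted p under 0.05 in limma). It was largest for FMO1 of the 4, at -1.21 (SE 0.42, adjusted p = 0.541).

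**Figure D2:**
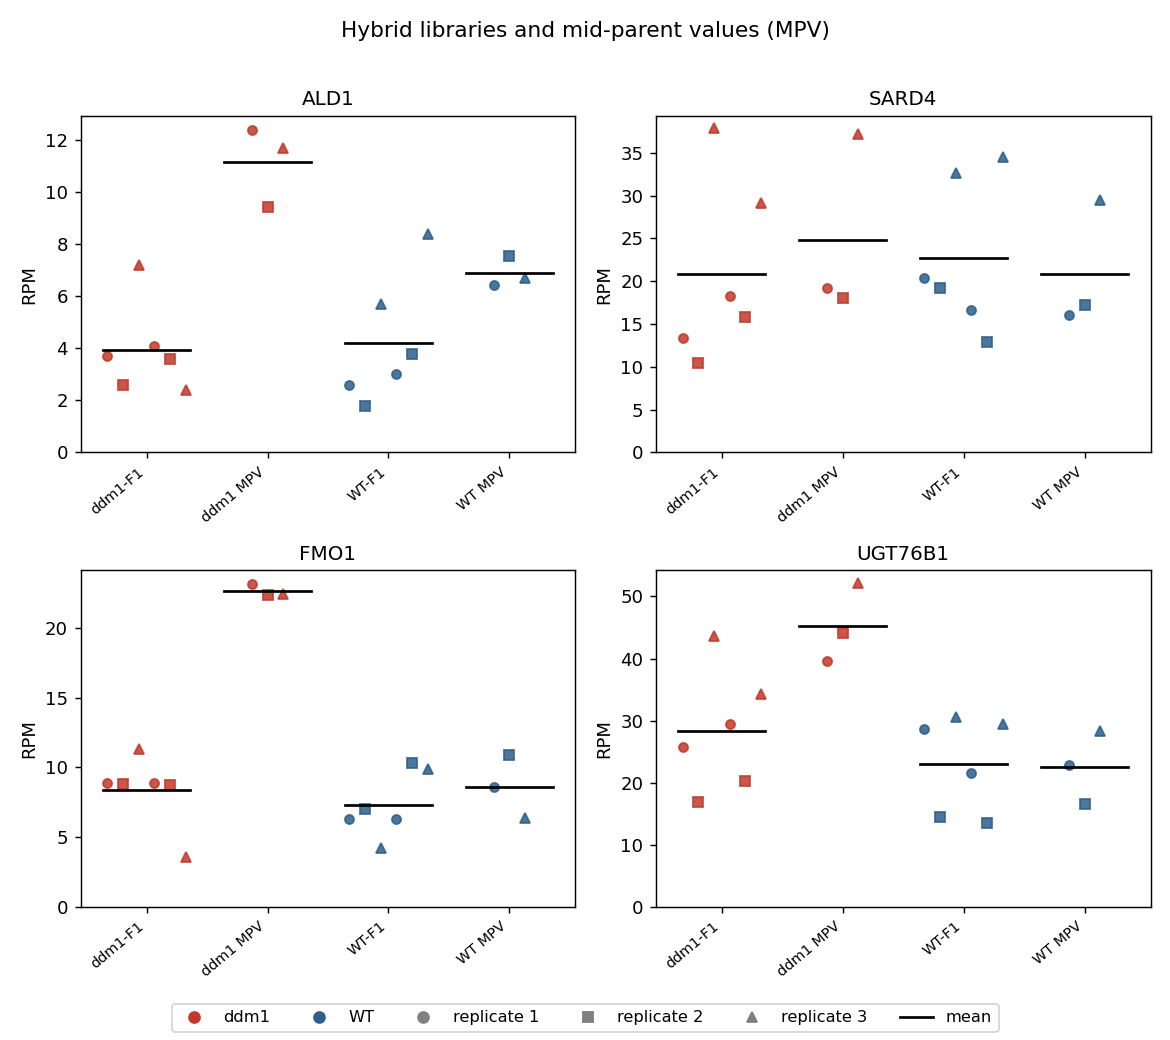
RPM (vertical axis, linear from 0) of the 6 hybrid libraries and the 3 mid-parent values of each background, with means as bars and the replicate number as the marker shape. For FMO1 the ddm1-F1 libraries lie at 3.6 to 11.3 RPM and the ddm1 MPV values at 22.4 to 23.2 RPM.

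The hybrids were then set against each parent, with the same hybrid libraries as in the comparisons with MPV. Against ddm1-C24, 3 of the 4 genes were lower in ddm1-F1, against 8.59% of all tested genes (14.9% in either direction). ALD1 had a log2 difference of -2.27 (SE 0.29, adjusted p = 0.000413), FMO1 of -2.16 (SE 0.29, adjusted p = 0.000608) and UGT76B1 of -1.25 (SE 0.27, adjusted p = 0.0116), while SARD4 was at -0.27 (interval -1.07 to 0.54). ALD1 and FMO1 passed under all 20 alternatives and UGT76B1 under 16, with 0.0779 the highest adjusted p and calls lost without ddm1-C24 replicate 2 or 3, with those replicates averaged, and with the ColxC24 hybrids alone. Against ddm1-Col none of the 4 passed, where 2.1% of all tested genes did, and 0 had an unadjusted p under 0.05 in limma. The differences were 0.70 for ALD1 (interval -0.17 to 1.58), 0.13 for UGT76B1 (-0.51 to 0.77), 0.03 for FMO1 (-0.70 to 0.77) and -0.18 for SARD4 (-1.32 to 0.95).

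In the WT hybrids, none of the 4 genes passed against WT-C24 (2.41% of all tested genes did) or against WT-Col (0.932% did), with 3 and 0 of the 4 at an unadjusted p under 0.05 in limma. With the replicate block, ALD1 was lower in WT-F1 than in WT-C24 (log2 difference -1.53, adjusted p = 0.0408) and SARD4 was higher (0.93, adjusted p = 0.00903), and 14.8% of all tested genes passed. The hybrids of the reciprocal crosses were compared by mother. None of the 4 genes passed between ddm1-ColxC24 and ddm1-C24xCol, where 0% of all tested genes did, or between WT-ColxC24 and WT-C24xCol, where 0.0224% did, and 0 of the 4 had an unadjusted p under 0.05 in limma. FMO1 was at 0.51 (interval -0.35 to 1.37) in the ddm1 comparison and at -0.56 (-1.36 to 0.25) in the WT one.

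The accessions were compared within each background. Reads of all genotypes were aligned to TAIR10, the Col-0 genome, and the effect of this on levels in C24 and hybrid libraries was not tested. Relative to ddm1-Col, 3 of the 4 genes were higher in ddm1-C24, where 7.29% of the tested genes were (13.3% in either direction). ALD1 was 8.32 times higher in mean RPM (log2 difference 2.98, SE 0.42, adjusted p = 0.00396), FMO1 4.64 times (2.19, SE 0.26, adjusted p = 0.00198) and UGT76B1 2.62 times (1.39, SE 0.22, adjusted p = 0.00721). SARD4 was at 0.09 (interval -1.14 to 1.31). All 3 of the genes that passed also did so under each of 15 alternatives. Of the 5 seed markers 2 were also higher, with a median log2 difference of 3.0 over the 5. The 5 summed to 139 to 393 RPM in ddm1-C24 and 2.9 to 52.2 RPM in ddm1-Col, and their part was not tested. In WT, 1 of the 4 genes passed, against 3.8% of all tested genes (2.02% higher). ALD1 was 6.26 times higher in WT-C24 than in WT-Col (log2 difference 2.44, SE 0.35, adjusted p = 0.0268). It did not pass with the replicate block (adjusted p = 0.0622; 6.82% of all tested genes did), nor without WT-C24 replicate 1, 2 or 3 or WT-Col replicate 1 or 2 or all libraries numbered 3, in a range of 0.0011 to 0.129. SARD4 was at -1.38 (SE 0.35, adjusted p = 0.156) and passed with the block (adjusted p = 0.0299). FMO1 was at 1.19 (interval -0.04 to 2.41) and UGT76B1 at 0.35 (-0.44 to 1.14). Seed markers summed to 582 to 1927 RPM in WT-C24 and 9.4 to 15.5 RPM in WT-Col, and their part in these differences was not tested.

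**Figure D3:**
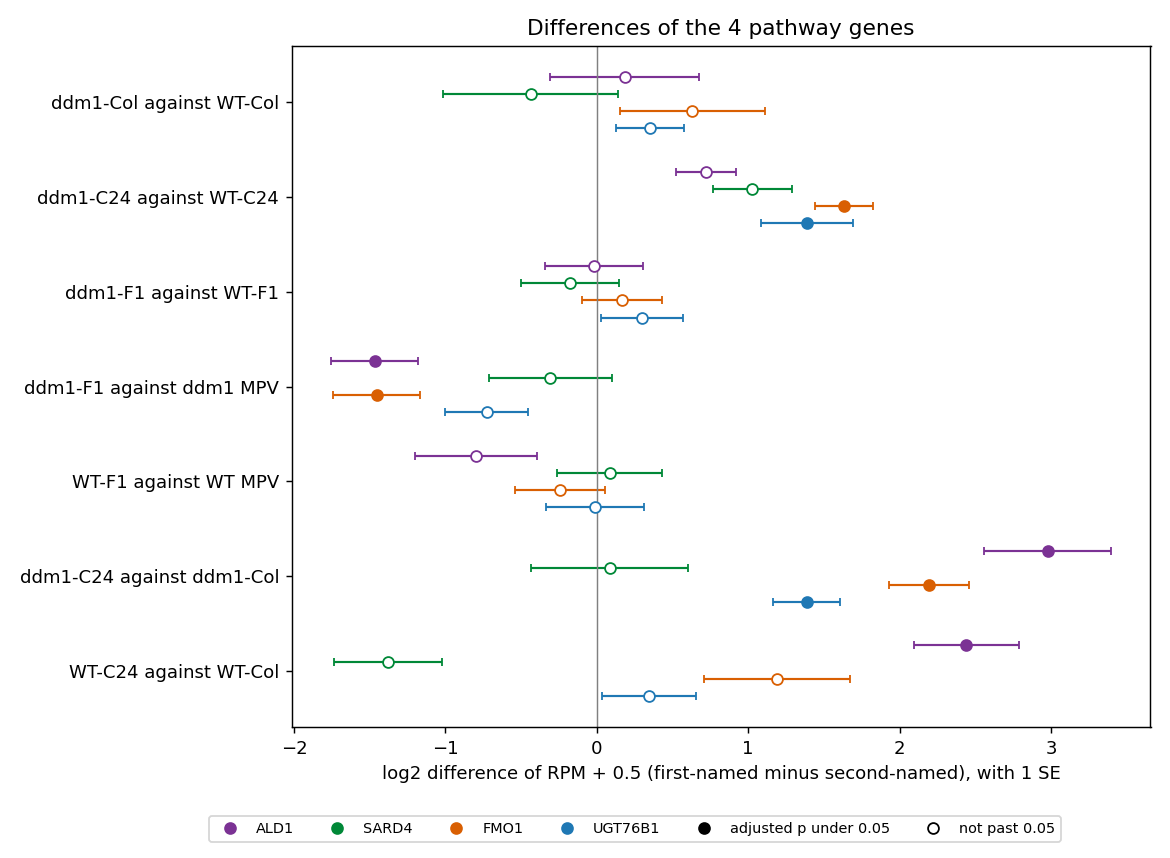
Log2 differences of RPM + 0.5 (horizontal axis, first-named minus second-named group) with 1 SE for each gene in 7 comparisons; filled points had an adjusted p under 0.05. FMO1 and UGT76B1 are filled in ddm1-C24 against WT-C24, and ALD1 and FMO1 in ddm1-F1 against ddm1 MPV.

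The genes around the pathway were taken as lists. Of 14 upstream regulators, 6 were higher in ddm1-C24 than in WT-C24 and 0 lower, where 8.61% of all tested genes were higher, with a median log2 difference of 0.78, against 0.03 over all tested genes. They included SARD1 (1.98) and CBP60g (1.64), transcription factors that bind the promoters of NHP and SA genes, and PAD4 (1.34) and EDS1 (1.05), partners in immune signaling. Of 6 repressors, 1 was higher, WRKY70 (1.01, adjusted p = 0.0493), with a median of 0.13. Of the 4 genes of the isochorismate route to SA, ICS1 (1.37), the isochorismate synthase, and PBS3 (2.08), which conjugates isochorismate to glutamate, were higher, with a median of 1.53.

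In ddm1-F1 against ddm1 MPV, 5 of the 14 regulators were lower and 0 higher, where 2.11% of all tested genes were lower, with a median of -0.60 against -0.07 over all tested genes. They included SARD1 (-2.0), PAD4 (-1.40), CBP60g (-1.23) and EDS1 (-1.11), and 11 of the 14 were lower with the replicate block, where 15% of all tested genes were. The ddm1-C24 libraries enter this comparison, through the MPV, as well as that of ddm1-C24 with WT-C24. Of the repressors the transcription factors WRKY54 (-1.50) and WRKY70 (-1.22) were lower, and of the isochorismate route ICS1 (-1.35) and PBS3 (-2.08). The study's own list below the MPV also holds EDS1, PAD4, ADR1-L1, SARD1, CBP60g, WRKY70, ICS1 and PBS3, so their direction here is not independent evidence. Between ddm1-F1 and WT-F1, 1 of the 14 regulators was higher, CBP60g (0.55, SE 0.11, adjusted p = 0.00298), where 9.23% of all tested genes were, and 5 were with the block, where 13.5% were. In ddm1-Col against WT-Col 0 of the 14 passed in limma (1 had an unadjusted p under 0.05), and 2 did with the block, against 18.7% of all tested genes. The ddm1 effect was larger in C24 than in Col for PAD4 (1.14, adjusted p = 0.0399) and CBP60g (1.07, adjusted p = 0.0201), where 2.22% of all tested genes passed in that direction, and for 7 of the 14 with the block, where 7.17% did.

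The supply of lysine and the sister glucosyltransferases gave few calls. Of 14 genes of lysine synthesis and breakdown, 0 passed the limma test in any of the 15 comparisons. At most 1 of them had an unadjusted limma p under 0.05 in a comparison. With the replicate block 3 were higher and 3 lower in ddm1-F1 against ddm1-C24, where 46.9% of all tested genes passed. Fewer were called with the block in each other comparison. Their median was 0.07 in ddm1-C24 against WT-C24 and -0.12 in ddm1-F1 against ddm1 MPV. In ddm1-C24 against WT-C24, 11 of the 14 were above 0 and AK3 was lowest (-1.27, limma adjusted p = 0.0981). AK3 was the only 1 called there with the block (adjusted p = 0.0164), where 12.4% of all tested genes passed. Of 8 tested genes of the UGT76 family and the SA glucosyltransferases, 0 passed the limma test in the other 14 comparisons than ddm1-F1 against ddm1-C24, with at most 2 at an unadjusted p under 0.05. There UGT76C1 was higher (0.93, adjusted p = 0.0108) and UGT76D1 lower (-0.69, adjusted p = 0.0304). Over the 15 comparisons the share of all tested genes that passed ran from 0% to 14.9%, the latter in ddm1-F1 against ddm1-C24. Of 7 other genes of systemic acquired resistance, MES9 (2.94, adjusted p = 0.000493), a methyl salicylate esterase, and LLP1 (1.43, adjusted p = 0.0219) were higher in ddm1-C24 than in ddm1-Col. Of all tested genes 7.29% were higher there (13.3% in either direction). In ddm1-C24 against WT-C24, 0 of these 7 passed the limma test (1 had an unadjusted p under 0.05), where 9.74% of all tested genes did.

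**Figure D4:**
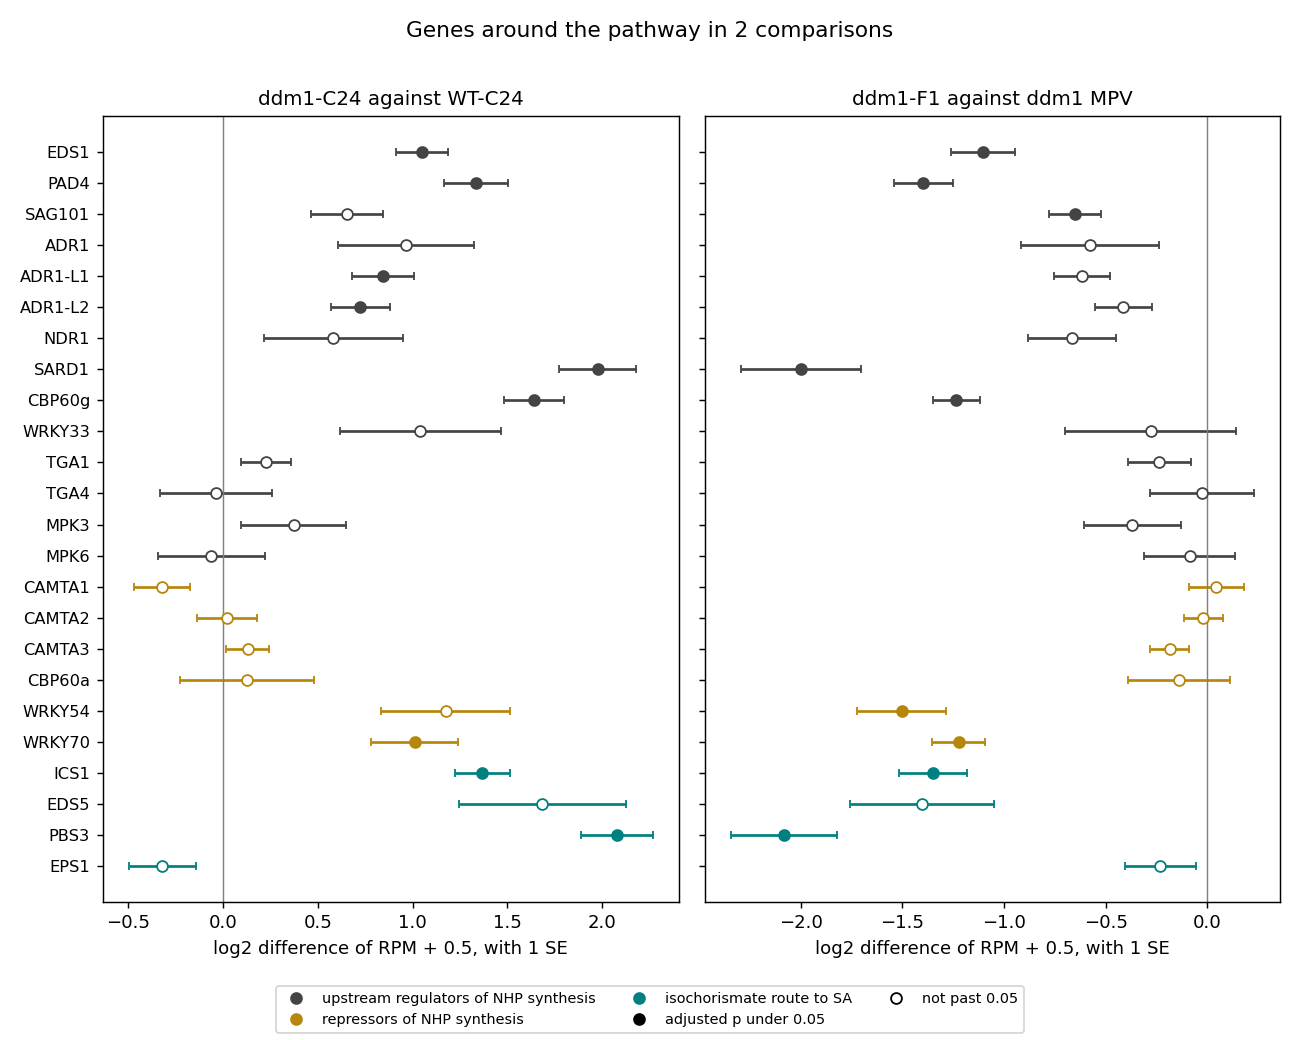
Log2 differences of RPM + 0.5 (horizontal axes) with 1 SE for the regulators, repressors and SA route genes in ddm1-C24 against WT-C24 (left) and ddm1-F1 against ddm1 MPV (right); filled points had an adjusted p under 0.05. SARD1 lies at 1.98 on the left and at -2.0 on the right, and both panels draw on the ddm1-C24 libraries.

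The members differed in how they varied among replicates. Replicate 3 was the highest library in 7 of 8 genotypes for SARD4 and for UGT76B1 and in 5 of 8 for ALD1, whereas it was the lowest in 4 of 8 for FMO1. Over the 24 libraries, log2 values of ALD1 and FMO1 had r = 0.70, with 0.36 in the 21 libraries without ddm1-C24, 0.90 over the 8 genotype means and -0.26 for deviations within genotypes. ALD1 and SARD4 had r = 0.01, with -0.50 over the means and 0.77 within genotypes. SARD4 and UGT76B1 had 0.76 within genotypes. These values describe libraries that share genotypes and replicate numbers. The relation of ALD1 and FMO1 thus rested in large part on ddm1-C24, while ALD1 and SARD4 varied together within genotypes.

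The genes whose log2 values were most like each member over the 24 libraries were named by rank. For ALD1 they were CRK39 (r = 0.96), AT5G24210 (0.95) and AT1G13470 (0.94), which were at 0.95, 0.90 and 0.89 in the 21 libraries without ddm1-C24. For FMO1 they were GSTF6, BGLU27 and AT1G26380 (each r = 0.93), at 0.79, 0.77 and 0.80 without ddm1-C24. For UGT76B1 they were FANCM (0.95), RAB11c (0.91) and RFL1 (0.91), and for SARD4 AT1G06830 (0.90), UGT73B3 (0.89) and ASL9 (0.87). No gene was shared between these 4 sets of 3.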

How the data were processed

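Whole seedlings of 8 genotypes were sequenced as 24 RNA libraries (paired-end Illumina reads). Per the study's methods, the authors trimmed the reads, aligned them to TAIR10 with TopHat2 and counted them per gene with HTSeq-count, and the deposited values are RPM, rounded by the authors to 0.1, with library sums of 999819 to 1000187. Counts could not be recovered from them. TAIR10 is the Col-0 genome, and what this alignment did to the levels of C24 and hybrid libraries was not tested. The study's table of sequencing statistics was not used here, so library depth is unknown, and tool versions and the strand setting are not given in the sources used here. The 4 bisulfite samples were not used here. No column of another sample was present (0 columns).

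Differences were tested with limma 3.58.1 in R 4.3.3 on log2(RPM + 0.5) with a mean-variance trend, over the 22329 genes that reached 1 RPM in 3 or more libraries, two-sided, with Benjamini-Hochberg adjusted p-values over all of them and a threshold of 0.05. The study used edgeR on counts, which RPM values do not allow. Fold changes on this scale understate those of low genes. Only the groups of a comparison entered its fit. On simulated data for 3 of the 15 comparisons, 200 of 200 genes changed 4-fold were recovered, with 9, 11 and 2 false calls. The simulated libraries had no replicate-number pattern and a small fixed spread. This checked the code and does not measure power in these data.

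Replicate numbers pair the samples: deviations from the genotype means had a mean r of 0.76 over 84 same-numbered pairs (lowest 0.16) and -0.36 over 168 others, with the number coming from the titles. The exception was 1 library, ddm1-C24 replicate 2, which was closer on average to libraries of another number. Its 100 highest genes held 17.4% of its total, against 16.7% in ddm1-C24 replicate 3 and 23.4% in replicate 1. Its place in a block by replicate number is thus uncertain, in every comparison that uses ddm1-C24 or the ddm1 MPV. A fit with that block was an alternative, as were other pseudocounts, no filter, median-ratio rescaling, 1 fit of all genotypes, other MPV definitions, single cross directions and leaving out libraries. Leaving out all libraries numbered 3 was added after seeing the data. The closest 2 libraries were ddm1-C24 replicates 2 and 3, and their average was an alternative. The next closest pairs were same-numbered hybrids of opposite cross directions, in WT (replicates 3 and 1) and in ddm1 (replicates 2 and 3). The 6 libraries of an F1 group may thus hold fewer independent samples than their number.

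The members, the lists and the tests were chosen with earlier results of these data known. From a list, the members with an adjusted p under 0.05 were named, at most 4 per list and comparison by size; likeness was the Pearson r of log2 values, with the top 3 genes named. Sequences and gene models are from RefSeq (TAIR10.1), matched by locus for 28331 of 28437 genes.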

Additional observations from a re-analysis of the deposited data

Results flagged for a closer look

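In the 6 ddm1-F1 libraries, 2 single libraries stood far from the rest. ALD1 was at 7.2 RPM in ddm1-ColxC24 replicate 3, with the next library at 4.1 RPM. FMO1 was at 3.6 RPM in ddm1-C24xCol replicate 3, with the next at 8.7 RPM. Of 10 groups of 6 examined in this way, chance would flag about 5%.

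The direct test for a C24 minus Col difference in ddm1 effect was passed by DDM1 with or without the replicate block. UGT76B1 passed it with the block and not in the main analysis. Of all tested genes, 5.06% passed in the main analysis and 12.5% with the block. For UGT76B1 the effect in C24 minus that in Col was 1.04 on the log2 scale, which passed with the replicate block (adjusted p = 0.0217) and not without it (adjusted p = 0.255). For DDM1 it was 2.20 (adjusted p = 0.0304, and 0.00222 with the block).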

How the results depend on the processing

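Of 60 single-gene results, 11 passed the threshold, 5 of these did so under every alternative and 0 reversed. Of 1108 single-gene values under alternatives, 993 kept direction and call, 20 gained a call, 45 lost one and 50 reversed, 0 of these past the threshold. The precision is limited by 3 libraries a genotype, by unknown depth and, for ALD1, by values near 1 RPM stored in steps of 0.1. Mid-parent values are averages and vary less than single libraries.

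The number of the 4 genes called moved as follows. With the replicate block it was 1 in ddm1-F1 against WT-F1 (0 without), 1 in the C24 minus Col effect (0) and 2 in WT-F1 against WT-C24 (0), and with block and median-ratio rescaling together 2 in ddm1-Col against WT-Col (0), 1 in ddm1-F1 against WT-F1, 1 in the difference of distances from MPV (0), 1 in the C24 minus Col effect and 1 in WT-F1 against WT-C24. Beyond the block results given above, the replicate block changed no other call of the 4 genes. In ddm1-C24 against WT-C24 it was 1 without the filter and 1 with replicates 2 and 3 of ddm1-C24 averaged (2 in the main analysis). There it was 3 with median-ratio rescaling, where SARD4 also passed (limma adjusted p = 0.0354), and 1 to 3 leaving out 1 library. In ddm1-F1 against ddm1 MPV (2) it was 1 with rescaling and 0 with log2 MPV, with either cross direction alone or with that average, and 0 to 2 leaving out 1 value. One fit of all 8 genotypes gave 1 in WT-F1 against WT-C24. Leaving out 1 library gave 2 to 3 in ddm1-F1 against ddm1-C24 (3), and 0 to 1 in the C24 minus Col effect, in WT-C24 against WT-Col and in WT-F1 against WT-C24. Without the libraries numbered 3, an alternative added after seeing the data, it was 0 in ddm1-C24 against WT-C24, 1 in ddm1-F1 against ddm1 MPV, 1 in the C24 minus Col effect and 0 in WT-C24 against WT-Col. The cause was not tested.

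The log2 differences that changed sign, none of them called, were these. In ddm1-F1 against WT-F1, ALD1 was 0.033 with rescaling, with or without the block, 0.39 in ColxC24 alone, 0.30 without the libraries numbered 3 and -0.20 to 0.30 leaving out 1 library (0.19 at most for a single one). In C24xCol alone SARD4 was 0.059 and FMO1 -0.37. In WT-F1 against WT MPV, UGT76B1 was 0.068 with rescaling, with or without the block, 0.0097 with log2 MPV, 0.080 in ColxC24 alone and -0.21 to 0.17 leaving out 1 value. SARD4 was -0.042 and FMO1 0.035 in C24xCol alone, and SARD4 -0.074 to 0.36 leaving out 1 value. In ddm1-C24 against ddm1-Col, SARD4 was -0.023 with rescaling, with or without the block, and -0.31 to 0.77 leaving out libraries (0.73 at most for a single one). In ddm1-F1 against ddm1-Col, FMO1 was -0.22 in C24xCol alone, -0.093 without the libraries numbered 3 and -0.23 to 0.24 leaving out 1, SARD4 0.061 and -0.58 to 0.46, and UGT76B1 -0.019 to 0.30. Leaving out 1, ALD1 was -0.29 to 0.52 in ddm1-Col against WT-Col, SARD4 -0.50 to 0.021 in ddm1-F1 against ddm1 MPV, and UGT76B1 -0.44 to 0.11 in WT-F1 against WT-C24. UGT76B1 in WT-F1 against WT-Col was -0.0013 without the libraries numbered 3. In ddm1-ColxC24 against ddm1-C24xCol, ALD1 was -0.27 without those and -0.073 to 0.58 leaving out 1, SARD4 -0.76 to 0.15 and UGT76B1 -0.39 to 0.29. In WT-ColxC24 against WT-C24xCol, SARD4 was -0.034 to 0.66 and UGT76B1 -0.11 to 0.52.

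Over all tested genes the calls moved by more than 1.5 times with the replicate block. They were 4175 with it and 1796 without in ddm1-Col against WT-Col, 5590 and 2324 in ddm1-F1 against WT-F1, 4438 and 497 in ddm1-F1 against ddm1 MPV, 89 and 15 in WT-F1 against WT MPV, 586 and 170 in the difference of distances, 2801 and 1129 in the C24 minus Col effect, 7144 and 2980 in ddm1-C24 against ddm1-Col, and 1523 and 849 in WT-C24 against WT-Col. Against single parents they were 4278 and 468 (ddm1-Col), 10464 and 3334 (ddm1-C24), 2015 and 208 (WT-Col), 3303 and 539 (WT-C24), and 208 and 0 in ddm1-ColxC24 against ddm1-C24xCol. One cross direction alone gave 101 and 114 in ddm1-F1 against ddm1 MPV, and the averaged ddm1-C24 replicates gave 201 there and 1776 in ddm1-C24 against ddm1-Col. Taking the MPV over log2 values gave 65 in WT-F1 against WT MPV and 279 in the difference of distances, a pseudocount of 0.1 gave 87 for those distances, and one fit of all 8 genotypes gave 1650 in WT-C24 against WT-Col. Leaving out 1 library or value also moved these counts, to 200 without MPV replicate 2 and 189 without MPV replicate 3 in ddm1-F1 against ddm1 MPV, to 398 to 556 in WT-C24 against WT-Col and to 1772, 1769 and 1820 without ddm1-C24 replicate 2, ddm1-C24 replicate 3 and ddm1-Col replicate 2 in ddm1-C24 against ddm1-Col. It gave 2166 and 2142 without ddm1-C24 replicates 2 and 3 in ddm1-F1 against ddm1-C24, 109 at the lowest in the difference of distances, and as few as 190 against ddm1-Col, 84 against WT-Col and 339 against WT-C24 for the hybrids of the same background. Among the smallest counts, WT-F1 against WT MPV gave 6 and WT-ColxC24 against WT-C24xCol 47 at the farthest. Without the libraries numbered 3 the counts were 1388 in ddm1-C24 against WT-C24, 108 in ddm1-F1 against ddm1 MPV, 724 in the C24 minus Col effect, 1446 in ddm1-C24 against ddm1-Col and 283 in WT-C24 against WT-Col, so the shares of all tested genes given above rest on these libraries too.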
